A study of Homo sapiens with 6 samples.

Results

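The genes described here are PTGS2 and 8 others of the prostaglandin E2 (PGE2) pathway: PLA2G4A, PTGS1, PTGES, PTGES2, PTGES3, PTGER2, PTGER4 and HPGD. They were picked by gene symbol, and all 9 were found among the 17039 genes of the expression table. Poly(A) RNA had been sequenced in 3 libraries of MDA-MB-231 cells, a human triple-negative breast cancer line, and in 3 libraries of 231-BR cells, a single variant line derived from it that homes to the brain. No treatment was applied to either line, but the medium of 231-BR cells, and only theirs, held the selection antibiotic G418. The 231-BR cells were a gift from another laboratory, and the MDA-MB-231 cells were bought from ATCC. The effect of the line therefore cannot be told apart from that of the antibiotic or of the source of the cells. The samples are described as independent, without a statement that they were separate cultures, and p-values therefore measure the spread between these libraries. Expression was given as FPKM, a fragment count scaled by transcript length and by the number of mapped fragments.

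PGE2 is made from arachidonic acid in steps. Cytosolic phospholipase A2, the product of PLA2G4A, frees arachidonic acid from membrane phospholipids. The cyclooxygenases COX-1 (PTGS1) and COX-2 (PTGS2) turn it into prostaglandin H2, and the PGE synthases PTGES, PTGES2 and PTGES3 turn that into PGE2. The secreted PGE2 acts on G protein-coupled receptors, of which EP2 (PTGER2) and EP4 (PTGER4) raise cyclic AMP, and 15-hydroxyprostaglandin dehydrogenase (HPGD) inactivates it. In most cells PTGS1 is expressed constantly, whereas PTGS2 is induced by inflammatory signals and growth factors, and PTGS2 has been studied as a gene of breast cancer metastasis to the brain.

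Members of the pathway moved in both directions. In 231-BR cells PTGS2, PTGES, PTGER4, PLA2G4A and HPGD rose, with log2 fold changes of 231-BR against MDA-MB-231 cells from 1.35 to 3.37, whereas PTGES2 and PTGES3, the synthases with the highest FPKM in both lines, fell by 0.41 and 0.22 on the log2 scale. The remaining members, PTGS1 and PTGER2, had a mean under 0.1 FPKM over the 6 libraries and were not tested. Fold changes are on the scale of log2(FPKM + 0.1), which draws low genes toward 0, and were tested with limma across the 13465 genes that averaged 0.1 FPKM or more, with Benjamini-Hochberg adjustment. The threshold of 0.05 on the adjusted p was passed by 77.3% of the genes tested (44.4% higher and 32.9% lower in 231-BR cells), so that passing the test alone did not set a member apart, and the sizes are the more telling values. Over all genes tested, the log2 fold changes had a median of 0.08. For the 7 members tested, each of which had a mean of at least 0.1 FPKM in both lines, no library of one line lay within the range of the other, as was the case for 78.4% of the genes tested. A differentially expressed gene (DEG) had to pass that threshold, change by more than 1 on the log2 scale in either direction and average 1 FPKM or more in both lines. PTGER4 and PLA2G4A met these criteria, both as higher genes, against 6.45% of the genes tested in either direction and 4.68% as higher genes. When 1 line at that level was enough, PTGS2 and PTGES met them as well, against 11.0% in either direction and 8.07% as higher genes. In RNA of whole cultures, more cells with a transcript and more of it per cell cannot be told apart.

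**Figure D1:**
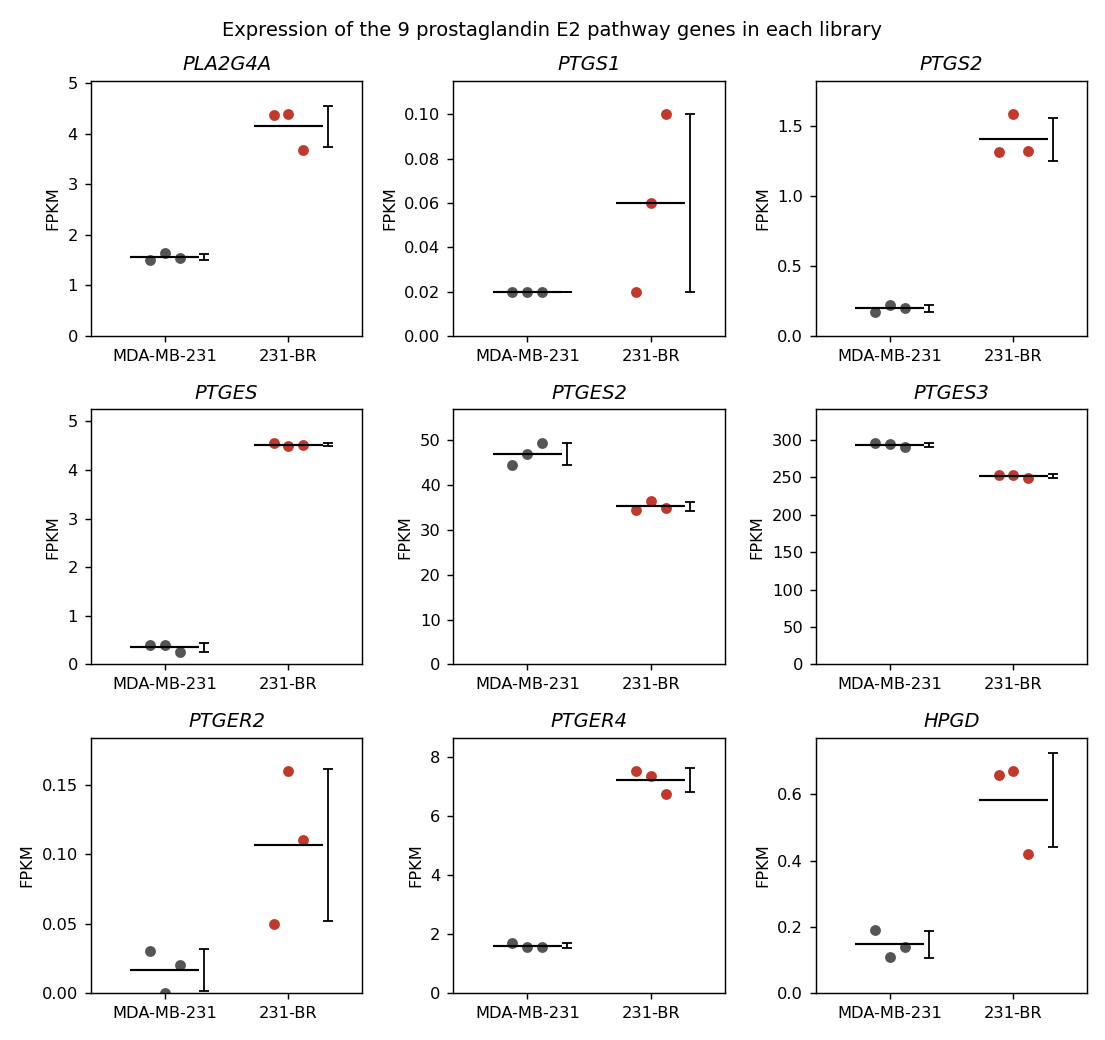
FPKM (linear vertical axes, starting at 0) of each of the 9 genes in the 3 MDA-MB-231 libraries (grey points) and the 3 231-BR libraries (red points), with the mean as a line and the SD as a bar. PTGS2, PTGES, PTGER4, PLA2G4A and HPGD lie higher in every 231-BR library, PTGES2 and PTGES3 lie lower, and PTGS1 stays at or under 0.10 FPKM throughout.

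PLA2G4A, which supplies the substrate of the pathway, had 4.37, 4.39 and 3.69 FPKM in 231-BR replicates 1 to 3 and 1.51, 1.64 and 1.55 FPKM in MDA-MB-231 replicates 1 to 3. The lowest 231-BR library stood well above the highest MDA-MB-231 library. The means were 4.15 ± 0.399 and 1.57 ± 0.067 FPKM (SD, n = 3 each), a ratio of 2.65, and the log2 fold change was 1.35 (standard error 0.085, adjusted p = 2.1e-07 from limma). With 1 added to the FPKM in place of 0.1, the log2 fold change was 1.002, and after quantile normalization it was 1.03, both just above the DEG cutoff of 1. The gene lies on the plus strand of chromosome 1, from 186828953 to 186988981 in GRCh38 (GENCODE release 29).

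The cyclooxygenase of these cells was PTGS2. It had 1.31, 1.58 and 1.32 FPKM in the 231-BR libraries and 0.17, 0.22 and 0.20 FPKM in the MDA-MB-231 libraries, so the lines were far apart although the gene was expressed at a low level in both. The means were 1.40 ± 0.153 and 0.197 ± 0.025 FPKM (SD, n = 3 each), a ratio of 7.14. The log2 fold change was 2.34 (95% confidence interval 2.04 to 2.64, adjusted p = 9.8e-08 from limma), the 343rd largest of the genes tested. Its size depended on the pseudocount, since it was 1.00 with 1 added to the FPKM and 2.78 with 0.01 added, both with an adjusted p under 0.05. In the ranking of all 17039 genes by FPKM, PTGS2 lay at percentile 36.8 for 231-BR cells and at 26.9 for the parental line.

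PTGS1 had 0.02, 0.06 and 0.10 FPKM in the 231-BR libraries and 0.02 FPKM in each MDA-MB-231 library. These values are at the edge of what a table with 2 decimals can resolve, and the libraries of the lines overlapped. Without the filter on low values, its log2 fold change was 0.38 with an adjusted p of 0.11. PTGS2 made up 98.5%, 96.3% and 93.0% of the summed FPKM of the 2 cyclooxygenase genes in the 231-BR libraries, and in the MDA-MB-231 libraries it made up 89.5%, 91.7% and 90.9%. PTGS2 was thus the main cyclooxygenase transcript in both lines. The difference of 5.25 percentage points had a p of 0.1 in an exact 2-sided permutation test, the smallest that 3 libraries against 3 can give.

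PTGS2 lies on the minus strand of chromosome 1, from 186671791 to 186680427 in GRCh38, and the first transcript listed for it in GENCODE has 10 exons. The DNA upstream of PTGS2 and PTGES is shown because these genes had the largest increases among the members. The sequences are from RefSeq (GRCh38.p14), run 5′ to 3′ on the strand of the gene and end at the base before the first annotated transcript base. The stretch for PTGS2 is chr1:186680428-186680673 (minus strand) and that for PTGES is chr9:129753048-129753292 (minus strand). Capitals mark matches, on either strand, to 6 short motifs. They are the CRE core TGACG (bound by CREB), the C/EBP motif TTNNGNAA, the AP-1 motif TGANTCA, the GC box GGGCGG, the TATA box TATAA and the kappaB motif GGGRNNYYCC of NF-kB. N is any base, R is A or G, and Y is C or T. A stretch that misses a motif by a single letter is left unmarked, as is gggactaccc in PTGS2, which misses the kappaB motif so.
PTGS2: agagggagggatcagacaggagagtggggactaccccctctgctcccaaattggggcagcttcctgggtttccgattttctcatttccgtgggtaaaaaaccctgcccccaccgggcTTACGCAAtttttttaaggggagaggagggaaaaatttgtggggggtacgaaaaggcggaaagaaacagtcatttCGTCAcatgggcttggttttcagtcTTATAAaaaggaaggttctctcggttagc
PTGES: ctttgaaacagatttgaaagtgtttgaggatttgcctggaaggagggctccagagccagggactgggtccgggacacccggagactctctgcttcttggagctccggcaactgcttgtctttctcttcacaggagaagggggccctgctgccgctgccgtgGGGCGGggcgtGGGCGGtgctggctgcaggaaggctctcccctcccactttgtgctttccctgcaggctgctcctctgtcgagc

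Positions are counted back from the RefSeq start of each gene, which lies a few bases beyond the end of the printed stretch, whose last base is at -5 for PTGS2 and at -6 for PTGES. In PTGS2 the C/EBP match TTACGCAA begins at position -133, the reverse strand of the CRE core (CGTCA) at -58, and the TATA box at -33, where both strands match in overlapping letters. A CRE core occurred in the 250 upstream bases of 21.2% of the 35116 promoters of the RefSeq table, a C/EBP motif in 33.2% and a TATA box in 18.9%. The upstream stretch of PTGES held none of these and had 2 GC boxes, at -89 and -78, a motif found in 42.6% of the promoters. That of PTGER4 had 4 GC boxes and 1 kappaB motif, which 9.96% of the promoters hold, and that of PLA2G4A had no match to any of the 6 motifs. The AP-1 motif, present in 6.57% of the promoters, was in none of the 4. These matches are a description of the letters. Binding was not measured.

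PTGES, the microsomal PGE synthase that is induced together with PTGS2 in many cells, had the largest change of the 7 members tested. Its values were 4.56, 4.49 and 4.52 FPKM in the 231-BR libraries and 0.40, 0.41 and 0.25 FPKM in the MDA-MB-231 libraries. The 231-BR libraries lay within 0.1 FPKM of each other. The means of 4.52 ± 0.035 and 0.353 ± 0.090 FPKM (SD, n = 3 each) gave a ratio of 12.8 and a log2 fold change of 3.37 (95% confidence interval 3.05 to 3.69, adjusted p = 1.1e-08 from limma). With a pseudocount of 1 the log2 fold change was 2.03. PTGES lies on chromosome 9, from 129738331 to 129753047 on the minus strand.

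PTGES2, a membrane-associated PGE synthase, had 34.6, 36.4 and 34.8 FPKM in the 231-BR libraries and 44.6, 47.0 and 49.5 FPKM in the MDA-MB-231 libraries. Every 231-BR library was lower, by 25.0% in the means, and the log2 fold change was -0.41 (standard error 0.040, adjusted p = 5.2e-06). PTGES3, the cytosolic synthase that is also the HSP90 co-chaperone p23, was among the most expressed genes, at percentile 98.6 for 231-BR cells and at 98.7 for the parental line. It had 253, 254 and 249 FPKM in the 231-BR libraries and 296, 294 and 290.4 FPKM in the MDA-MB-231 libraries. The decrease was 14.2% in the means, with a log2 fold change of -0.22 (adjusted p = 3.8e-06). After quantile normalization it was -0.07 (adjusted p = 0.015), although the median of all genes moved the other way, by -0.14. PTGES3 has 5 processed pseudogenes named after it in GENCODE, and how reads shared with them were counted is not stated.

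Among the synthases, the share of PTGES differed most between the lines in relative terms. PTGES was 1.55% ± 0.023 of the summed FPKM of the 3 synthases in the 231-BR libraries against 0.104% ± 0.026 for the MDA-MB-231 libraries (SD, n = 3 each), with no overlap between the lines and a p of 0.1 in the exact permutation test. PTGES3 was 86.4% ± 0.244 and 86.1% ± 0.725 of the sum (SD, n = 3 each), and for this share the libraries overlapped (exact permutation p = 0.7). The FPKM of PTGES2 was 7.58 to 8.10 times that of PTGES in the 231-BR libraries and 111 to 198 times in the MDA-MB-231 libraries. The summed FPKM of the 3 synthases was 292 ± 3.13 and 341 ± 0.787 (SD, n = 3 each).

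Of the receptors, PTGER4 carried nearly all of the EP2 and EP4 transcript. PTGER4 had 7.53, 7.37 and 6.77 FPKM in the 231-BR libraries and 1.71, 1.55 and 1.55 FPKM in the MDA-MB-231 libraries. All 231-BR libraries were higher by a wide margin. The means were 7.22 ± 0.401 and 1.6 ± 0.092 FPKM (SD, n = 3 each), a ratio of 4.51, and the log2 fold change was 2.10 (standard error 0.070, adjusted p = 2.4e-09 from limma). The gene spans 40679498 to 40693735 on the plus strand of chromosome 5, within the span of TTC33 on the other strand. Their annotated exons share 0 bases, and TTC33 had a log2 fold change of 0.30. Whether the authors counted by strand is not stated.

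PTGER2 had 0.05, 0.16 and 0.11 FPKM in the 231-BR libraries, and in the MDA-MB-231 libraries it had 0.03 FPKM, was listed at 0, and had 0.02 FPKM. The libraries did not overlap, but the values differ by only a few steps of the table's last decimal. Without the filter on low values, its log2 fold change was 0.80 (adjusted p = 0.014).

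HPGD, the enzyme that breaks PGE2 down, was also higher in 231-BR cells. It had 0.66, 0.67 and 0.42 FPKM in the 231-BR libraries and 0.19, 0.11 and 0.14 FPKM in the MDA-MB-231 libraries. Both lines stayed under 1 FPKM, and the third 231-BR library lay apart from the other two. The means were 0.583 ± 0.142 and 0.147 ± 0.040 FPKM (SD, n = 3 each), a ratio of 3.98, and the log2 fold change was 1.46 (95% confidence interval 1.01 to 1.91, adjusted p = 8.2e-05). With a pseudocount of 1 it was 0.46. The third library was the lowest of its line for PLA2G4A and PTGER4 as well.

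HPGD had a smaller log2 fold change than PTGS2, and the ratio of the genes was compared within each library. The FPKM of PTGS2 was 1.99, 2.36 and 3.14 times that of HPGD in the 231-BR libraries and 0.895, 2.0 and 1.43 times in the MDA-MB-231 libraries, so that the highest MDA-MB-231 library overlapped with the lowest of 231-BR cells (exact permutation p = 0.2). On the log2 scale with 0.1 added, the ratio of HPGD to PTGS2 was lower in 231-BR cells by 0.88 on average, a difference of -0.88 with an exact permutation p of 0.1. The FPKM of PLA2G4A, in contrast, was 2.78 to 3.34 times that of PTGS2 in the 231-BR libraries against 7.46 to 8.88 times for the MDA-MB-231 libraries (exact permutation p = 0.1), since PTGS2 had the larger increase.

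FPKM is scaled by length, so the levels of the 9 genes can be ordered. In 231-BR cells the order was PTGES3, PTGES2, PTGER4, PTGES, PLA2G4A, PTGS2, HPGD, PTGER2 and PTGS1, and only the last 2 overlapped in their libraries. In MDA-MB-231 cells PTGER4 and PLA2G4A followed PTGES2 and overlapped with each other, PTGES came next, PTGS2 and HPGD overlapped with each other, and PTGS1 overlapped with PTGER2 at the bottom. PTGES was thus above PLA2G4A in 231-BR cells and below it in MDA-MB-231 cells. Of the 9 genes, 6 averaged 1 FPKM or more in 231-BR cells, and 4 did in the parental line.

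PTGS2 and PLA2G4A are neighbours on chromosome 1, 149 kb apart, with the non-coding gene PACERR between them, and the genes around them were higher in 231-BR cells too. Among genes that averaged 1 FPKM or more, all 40 nearest neighbours of PTGS2, 20 on each side, had a log2 fold change above 0. All 40 had an adjusted p under 0.05, where 77.3% of all genes tested passed, 44.4% as higher genes. The median of these neighbours was 0.57. For comparison, 54.9% of the 11090 placed genes had a log2 fold change above 0, and the median over chromosome 1 was 0.22. Of the genes with 20 neighbours on each side, 1.38% had all 40 above 0, whereas 5.56% had a neighbour median at least as high as that of PTGS2. Genes near each other share most of their neighbours, so these shares do not count separate stretches. PTGS2 and PLA2G4A, with 2.34 and 1.35, lay above the medians of their own neighbours, which were 0.57 and 0.55, and 4 and 5 of those neighbours had a larger log2 fold change. The nearest genes that averaged 1 FPKM or more, other than the pair itself, were ODR4 on the side of PTGS2, with 9.32, 9.08 and 10.4 FPKM in the 231-BR libraries and 7.78, 8.27 and 7.16 FPKM in the MDA-MB-231 libraries, and RGS2 on the side of PLA2G4A, with 6.31, 6.30 and 6.47 FPKM against 3.15, 3.03 and 3.18 FPKM. Their log2 fold changes were 0.31 (adjusted p = 0.0018) and 1.00 (adjusted p = 5.9e-08). The part of the stretch in the values of PTGS2 and PLA2G4A was not tested.

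The other members stood in different surroundings. Around PTGES and PTGES2 on chromosome 9, the medians of the 40 neighbours were -0.13 and -0.16, against 3.37 and -0.41 for the genes themselves. The median around PTGES3 on chromosome 12 was -0.24, close to its own -0.22. Around PTGER4 on chromosome 5 and HPGD on chromosome 4 the medians were 0.37 and 0.44, each with most neighbours above 0 (32 and 36 of 40). Around PTGER2 on chromosome 14 the median was 0.44, with 38 of 40 above 0. Around PTGS1 on chromosome 9 it was -0.23, with 12 of 40 above 0. The increase of PTGES was thus the one that departed most from its neighbours.

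**Figure D2:**
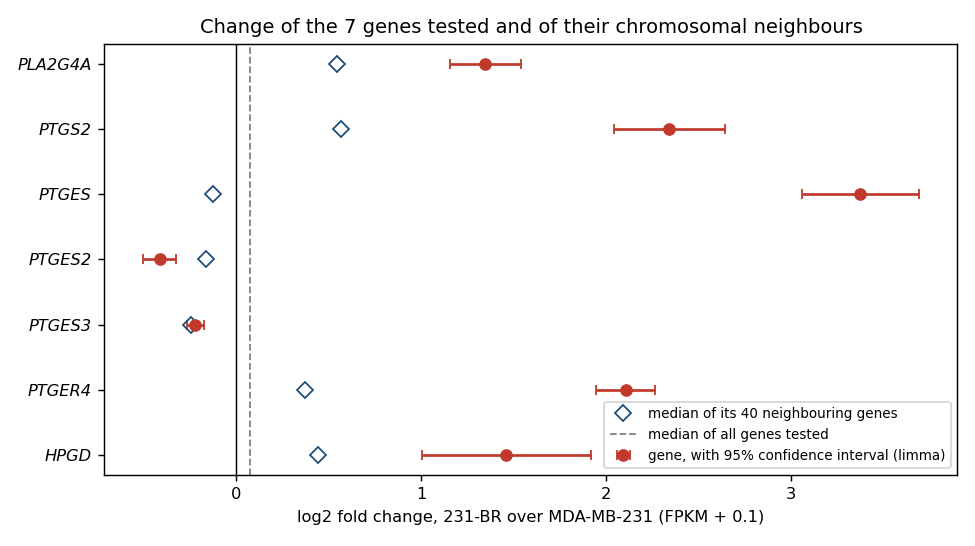
Log2 fold change (231-BR over MDA-MB-231, FPKM + 0.1) of the 7 genes tested as red points with 95% confidence intervals from limma, the median of the 40 neighbouring genes of each as an open diamond, and the median of all genes tested as a dashed line at 0.08. PTGES at 3.37 lies farthest from its neighbours, and PTGES3 at -0.22 lies next to the median of its own.

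The rest of the pathway was covered by 9 lists with 156 genes, of which 141 were in the table and 121 could be tested. In 231-BR cells 64 of them were significantly higher and 45 significantly lower (adjusted p under 0.05), and their median log2 fold change was 0.19. That is 109 of 121, where 77.3% of all genes tested passed, 44.4% as higher and 32.9% as lower genes. Some of the 121, PTGER1, NFATC4 and ALOX5AP among them, averaged under 0.1 FPKM in 1 line and passed the filter through the other alone. For these genes the filter set the direction of the change. Among the enzymes and acyltransferases that release, activate or store arachidonic acid, 10 of 20 were higher and 7 lower, with a median of 0.28. ACSL4, which couples arachidonic acid to coenzyme A, rose from 37.4 to 84.5 FPKM in the means (log2 fold change 1.17), and LPCAT2, a lysophospholipid acyltransferase, had a log2 fold change of 1.53 (0.95 with a pseudocount of 1). PLA2G16, another phospholipase, fell from 22.5 to 8.89 FPKM (log2 fold change -1.34).

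Of the synthases of other prostanoids, 5 of 7 were higher and 2 lower, where 44.4% of all genes tested were higher and 32.9% lower. TBXAS1, thromboxane synthase, had 5.79, 6.0 and 6.13 FPKM in the 231-BR libraries and 0.37, 0.49 and 0.48 FPKM in the MDA-MB-231 libraries, a log2 fold change of 3.48 (adjusted p = 9.7e-10), or 2.27 with a pseudocount of 1. AKR1B1, an aldo-keto reductase that can make prostaglandin F2 alpha, fell from 165.5 to 52.1 FPKM (log2 fold change -1.67). AKR1C1, with a log2 fold change of 2.66, has near-identical paralogs among which reads could have been divided. In the list of PGE2 transport and breakdown, 4 of 7 were higher and 3 lower, beside the same shares of 44.4% and 32.9%. PTGR1, the reductase that acts on the product of HPGD, fell from 57.8 to 22.9 FPKM (log2 fold change -1.33), opposite to HPGD. The organic anion transporters SLCO4A1 and SLCO1B3 rose, with log2 fold changes of 1.03 and 0.88.

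The other prostanoid receptors were all expressed under 1 FPKM in the means of both lines. Of the 4 tested, 3 were higher and 1 lower, where 44.4% of all genes tested were higher and 32.9% lower. For the lower one the libraries of the lines overlapped (adjusted p = 0.038 from limma). PTGER1, the EP1 receptor, named after its values were seen, had 0.82, 1.01 and 1.08 FPKM in the 231-BR libraries, and among the MDA-MB-231 libraries it was listed at 0 in replicates 1 and 2 and had 0.03 FPKM in replicate 3. This placed it above PTGER2 in 231-BR cells. PTGER1 passed the filter on low values through 231-BR cells alone, so that its count among the higher genes adds little.

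Downstream of EP2 and EP4, genes of cyclic AMP signalling moved in both directions, 11 of 26 higher and 10 lower, with a median of 0.15. Over all genes tested, 44.4% were higher and 32.9% lower. PRKACA, the catalytic subunit of protein kinase A, had 48.9, 47.4 and 48.2 FPKM in the 231-BR libraries and 18.0, 18.4 and 18.3 FPKM in the MDA-MB-231 libraries (log2 fold change 1.40, adjusted p = 6.8e-11). CRTC1, a coactivator of CREB, rose from 3.97 to 14.2 FPKM (log2 fold change 1.82), whereas ADCY7, an adenylyl cyclase, fell from 7.17 to 2.29 FPKM (log2 fold change -1.60). Of the genes listed as responding to cyclic AMP, 8 of 9 were higher and 0 lower, where 44.4% of the genes tested were higher, with a median of 0.72. Among the higher genes, NR4A1, NR4A2, FOS, FOSB and PPARGC1A, named after their values were seen, averaged under 1 FPKM in both lines. The median is the value of FOS. AREG, the EGF receptor ligand amphiregulin, had 8.57, 7.06 and 7.5 FPKM against 1.59, 1.12 and 1.32 FPKM (log2 fold change 2.44), and DUSP1, a phosphatase of MAP kinases, rose from 9.72 to 21.8 FPKM (log2 fold change 1.16). The smallest of the 8 was PER1, with a log2 fold change of 0.19 (adjusted p = 0.044), which did not keep its call after median-of-ratios scaling (adjusted p = 0.21) and had a value of -0.13 after quantile normalization. Many other inputs act on these genes, and cyclic AMP was not measured.

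In the branches that compete for arachidonic acid, 3 of 9 genes were higher and 4 lower, where 44.4% of all genes tested were higher and 32.9% lower. ALOX5AP, which presents arachidonic acid to 5-lipoxygenase, was listed at 0 in every 231-BR library and had 1.48, 1.65 and 1.64 FPKM in the MDA-MB-231 libraries. The gene of 5-lipoxygenase itself, ALOX5, was not among the genes tested. The epoxygenase CYP2J2 had 6.54, 5.23 and 5.59 FPKM against 2.09, 2.01 and 2.06 FPKM (log2 fold change 1.44), and CYP2U1 had a log2 fold change of 1.31.

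The regulators of PTGS2 transcription were lower more often than higher, 16 against 9 of 26, where 32.9% of all genes tested were lower and 44.4% higher, with a median of -0.21. This list holds 6 NF-kB genes (NFKB1, NFKB2, REL, RELA, RELB and NFKBIA), singled out after their values were seen, of which 5 were lower and 0 higher in 231-BR cells. RELB had 1.65, 2.02 and 1.35 FPKM in the 231-BR libraries and 7.56, 7.35 and 7.81 FPKM in the MDA-MB-231 libraries (log2 fold change -2.13). NFKB2 had 8.49, 8.83 and 9.73 FPKM against 23.29, 23.27 and 23.30 FPKM, and NFKBIA, the inhibitor that NF-kB induces, had 21.1, 20.7 and 20.4 FPKM against 66.6, 63.1 and 67.0 FPKM. The log2 fold changes were -1.36 and -1.66. REL and RELA had log2 fold changes of -0.85 and -0.23, and NFKB1 did not pass the test (log2 fold change 0.04, adjusted p = 0.31). NF-kB activity was not measured, and the part of these genes in the level of PTGS2 was not tested. Higher in 231-BR cells were JUND, from 6.47 to 31.4 FPKM (log2 fold change 2.26), PPARG, from 8.86 to 54.1 FPKM (2.60), and NFATC4, from 0.040 to 1.23 FPKM (3.25, but 1.10 with a pseudocount of 1 and 4.65 with 0.01).

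Among proteins that control the stability or translation of PTGS2 messenger RNA, 11 of 13 were higher and 2 lower, where 44.4% of all genes tested were higher and 32.9% lower, with a median of 0.35. ZFP36L1, which binds AU-rich elements and promotes decay, had 152, 143 and 145 FPKM in the 231-BR libraries and 57.7, 56.9 and 55.9 FPKM in the MDA-MB-231 libraries (log2 fold change 1.37, adjusted p = 9.6e-11). MAPKAPK2, a kinase that opposes such decay, rose from 27.1 to 46.8 FPKM (log2 fold change 0.79), and CELF2 rose from 3.25 to 5.18 FPKM (log2 fold change 0.65, or 0.41 after quantile normalization).

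**Figure D3:**
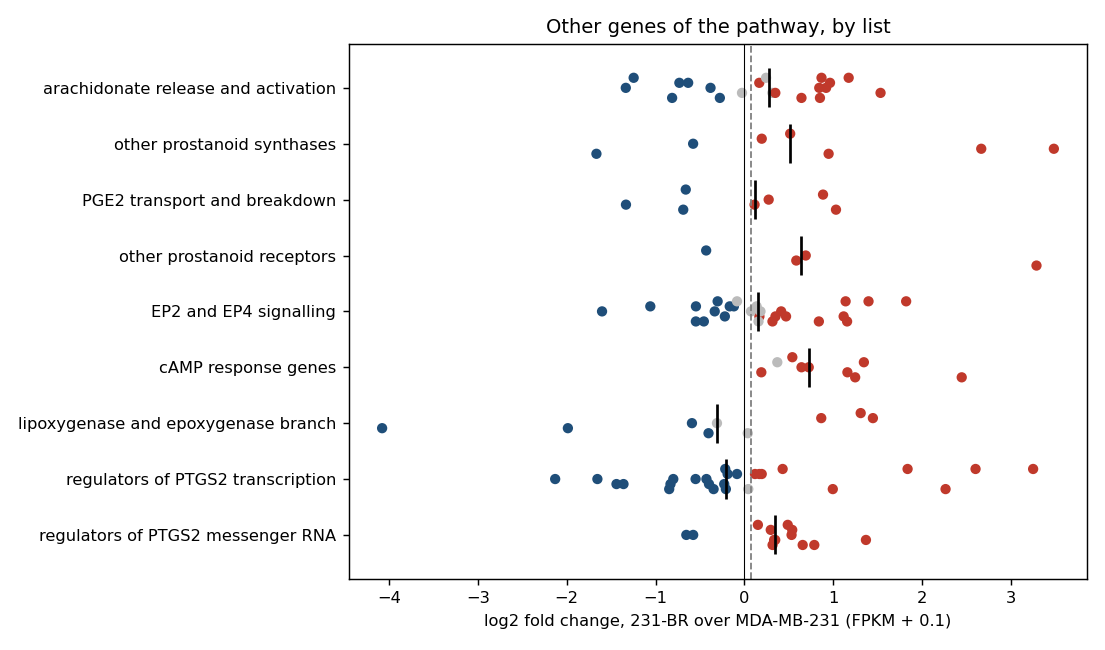
Log2 fold change (231-BR over MDA-MB-231, FPKM + 0.1) of the 121 other pathway genes tested, by list, with genes significantly higher in red, significantly lower in blue and others in grey. The short vertical lines are list medians and the dashed line is the median of all genes tested at 0.08. The cyclic AMP response genes, most of which averaged under 1 FPKM in both lines, have a median of 0.72. The regulators of PTGS2 transcription have one of -0.21.

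The genes whose pattern was most like that of PTGS2 were IGFBP3, FAM84B, RASSF5, SH2D3A and G0S2. Likeness was the Euclidean distance over the 6 libraries between log2 values centred on each gene's mean, and it ran from 0.225 for IGFBP3 to 0.253 for G0S2 among 11417 genes. Their log2 fold changes lay between 2.29 and 2.44. With 2 groups of libraries this mostly selects genes with a fold change close to that of PTGS2. G0S2 had means of 600.5 and 120.1 FPKM and SH2D3A had 2.58 and 0.447 FPKM, so that a like pattern spanned very different levels.

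The libraries were close to each other within a line, with a summed FPKM of 465020 to 472007 for 231-BR and of 486937 to 496420 for MDA-MB-231. The depth is unknown because the files give no counts. Of 7 markers of epithelium and of this line, EPCAM, KRT8, KRT18, CD44, VIM and EGFR averaged more than 1 FPKM in both lines, and KRT7 had a mean of 0.713 FPKM in 231-BR and 77.0 FPKM in MDA-MB-231. The summed level of the 7 markers was 3260 to 3300 FPKM in the former and 3200 to 3300 FPKM in the latter. Most of it was VIM, with means of 2553 and 2306 FPKM. Of the receptors that define the triple-negative type, ESR1 and PGR averaged less than 1 FPKM, and ERBB2 had means of 9.88 and 4.95 FPKM. Of the markers of other cell types, only CD68 (leukocytes), MBP (brain) and ACTA2 (fibroblasts) averaged 1 FPKM or more in a line. Of the rest, PTPRC, CD3E, PDGFRB, COL1A2, LUM, CDH5, VWF, TEK, GFAP and AQP4 averaged less than 0.1 FPKM in both lines. COL1A1, PECAM1, LYZ, CD14, RBFOX3 and SNAP25 averaged more than 0.1 FPKM in at least 1 line. The highest of these was COL1A1, with means of 0.517 FPKM in 231-BR and 0.93 FPKM in MDA-MB-231. The summed level of 5 leukocyte markers was 81.1 to 84.7 FPKM against 62.4 to 65.1 FPKM, nearly all of it CD68, and that of 5 brain markers reached at most 21.4 FPKM against 14.4 FPKM, nearly all of it MBP. The 5 fibroblast markers summed to 2.55 to 3.31 FPKM against 1.2 to 1.43 FPKM, and the 4 endothelial markers to 0.41 to 0.50 FPKM against 0.21 to 0.24 FPKM. Their part in the values of the pathway genes was not tested.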

How the data were processed

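The authors filtered the reads with SOAPnuke, aligned them to the genome with HISAT2 2.0.4 (GRCh38.p12 in the submitters' processing notes) and to a gene set built by BGI Tech with Bowtie2 2.2.5, and deposited FPKM values with 2 decimals for each gene. The release of the annotation behind that gene set and the program that computed FPKM are not given in the sources used here. Read counts were not used here, so the test was made on the log scale and no interval that needs the depth is given. The table of all samples and the 6 files of single samples hold the same values, and 25 symbols that had become dates were replaced through their gene identifiers.

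Libraries were grouped by the titles of the samples, since in one label field the number in the name of the line rises by 1 with each replicate. The 13465 genes that averaged 0.1 FPKM or more entered a linear model of log2(FPKM + 0.1) on the line in limma 3.58.1 (lmFit, then eBayes with trend) under R 4.3.3. P-values were adjusted over all of them by the Benjamini-Hochberg method. Ratios and shares were compared by exact 2-sided permutation tests over the libraries (SciPy 1.17.1). Gene order came from RefSeq (GRCh38.p14), coordinates of genes from GENCODE release 29 (GRCh38), and promoters from the RefSeq table, in which PTGS2, PTGES, PLA2G4A and PTGER4 were looked up. The fit was checked on simulated data. Figures were made with Python 3.11.15 and matplotlib 3.10.9.

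The members and gene lists were chosen with earlier results of these data known. Named in the text are all members, up to 3 genes of each list with the largest absolute change among those past the test that averaged 1 FPKM or more in 1 of the lines, the 5 genes most like PTGS2, and the nearest genes beside PTGS2 and PLA2G4A. Other genes of the lists whose levels are given are marked as named after their values were seen. Alternatives were pseudocounts of 1 and 0.01, no filter, a filter at a mean FPKM of 1, 3 other scalings, no trend, a term for the replicate number, other DEG criteria and each library left out in turn. Values of single neighbours of PTGS2 and PLA2G4A other than the nearest genes are not reported here.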

Additional observations from a re-analysis of the deposited data

How the results depend on the processing

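Of 522 values recomputed under the alternatives, 511 kept their direction and their side of the threshold, or, for a count, stayed within 1.5 times the reported one. The exceptions were the members that met the DEG criteria, which were 4 when 1 line at 1 FPKM was enough and 1 (PTGER4) with an absolute log2 fold change over 1.5, and PER1, whose value was -0.13 after quantile normalization. PER1 also lost its call without the filter, after median-of-ratios scaling (log2 fold change 0.11), with the replicate block and with each library but MDA-MB-231 replicate 3 left out, where its log2 fold change lay between 0.14 and 0.22. Leaving out 1 library at a time kept the log2 fold change of PTGS2 between 2.26 and 2.40 and that of PLA2G4A between 1.31 and 1.43, and 7 members were called each time. As 77.3% of all genes tested passed with all 6 libraries, calls here and under the other alternatives do not set the members apart. The difference in the PTGS2 share lay between 3.97 and 6.74 percentage points and that in the log2 ratio of HPGD to PTGS2 between -1.05 and -0.69. The latter was -0.54 with a pseudocount of 1. PTGS2 and HPGD could not be fitted with the filter at a mean FPKM of 1, which left 5 members, all called. Same-numbered libraries of the lines did not deviate together (correlations of 0.087, -0.040 and -0.106 over 11124 genes), and with the replicate block PTGS2 had a log2 fold change of 2.34 (adjusted p = 5.2e-07), the 7 members were called and 106 of the other pathway genes were. Members near 0, PTGS1 and PTGER2, are limited by the 2 decimals and the unknown depth.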
